A study of Mus musculus with 12 samples.

Results

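Mucins and the genes that mucous cells use to make and release them were followed in the seminal vesicle, the paired male gland whose epithelium secretes most of the seminal plasma. The set was Prol1, Muc1, Muc4, Muc16, Muc20, Agr2, Clca3a1 and Tff3, taken as every probe set whose only platform symbol was 1 of these mucin or mucous-secretion genes. Each of the 8 genes had 1 probe set, of 30063 named genes and 72688 probe sets in all. The probe set of Clca3a1 carries the older symbol Clca1 on the platform and was recognised by its gene identifier. The members were picked by name from the genes of this kind, with the differences between WT_DES and the other groups already known. Differences that use the arrays of DES-treated wild-type mice, on which the members stand out, are therefore given as descriptions without a test, and the comparisons that do not use those arrays were tested.

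The glands came from male C57BL/6 mice at week 10 of the wild type (WT) or of a knockout (aERKO) of estrogen receptor alpha, the nuclear receptor encoded by Esr1. As pups they had been injected under the skin with diethylstilbestrol (DES), a synthetic estrogen, in corn oil, each pup receiving 2 µg daily from day 1 (the day of birth) to day 5, or with an equal volume of corn oil (vehicle). The 4 groups were WT_DES, WT_vehicle, aERKO_DES and aERKO_vehicle, with 3 Affymetrix arrays of total RNA each. The labels say neither how the receptor allele was made nor whether each array is a separate mouse, so errors and p-values cover only how far these 3 samples differ, which may be technical.

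Mucins are proteins whose long serine- and threonine-rich stretches carry dense O-linked sugars. Secreted mucins form the mucus that covers and lubricates an epithelium, whereas membrane mucins stay anchored in the apical membrane and carry signalling parts towards the cell. Mucous cells, such as the goblet cells of gut and airway, add trefoil peptides, proteins of the CLCA family and a disulfide isomerase that folds mucins in the endoplasmic reticulum.

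Values are log2 expression, so 1 unit is a 2-fold difference. They compare arrays for 1 gene, and the level of 1 gene is not set against that of another. The medians of the arrays lay between 5.95 and 6.14, and 23 background control probe sets averaged 5.20. The highest single control read between 8.16 and 9.53, depending on the array. Levels relative to background refer to the mean of these controls, which is not a limit of detection. Across genes, correlations between arrays were 0.982 to 0.996 inside a group and 0.867 to 0.919 for an array of WT_DES set against one of another group. Esr1 was lower in the knockout glands, at 6.99 ± 0.11 in aERKO_vehicle against 7.75 ± 0.08 in WT_vehicle (SD, n = 3 each; limma adjusted p = 0.00587). The 9 measured marker genes of seminal vesicle secretory cells averaged 13.4 to 13.7 on the arrays of WT_DES, against 13.8 on each array of WT_vehicle, near the top of the scale at 14.54. A gene was tested where its value exceeded the array's median on at least 3 of the 12 arrays, and "called" means an adjusted p below 0.05 in limma over the 20102 genes tested. Of the members 7 were tested, and Muc16 was above the median on no array.

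Between WT_DES and WT_vehicle, Prol1, Clca3a1, Muc1, Muc20 and Muc4 were higher after DES and Agr2 was lower, by log2 differences that ran from 5.16 for Prol1 to -1.29 for Agr2. Tff3 and Muc16 differed by at most 0.16. In limma 5 of the 7 tested members were past the threshold as higher and 1 as lower, in a comparison in which 43.9% of all tested genes were called, 20.7% higher and 23.3% lower. For each of the 7 tested members the arrays of both groups were fully separate, as they were for 60.9% of all tested genes. Since this contrast was used in choosing the members, nothing is read from these counts.

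**Figure D1:**
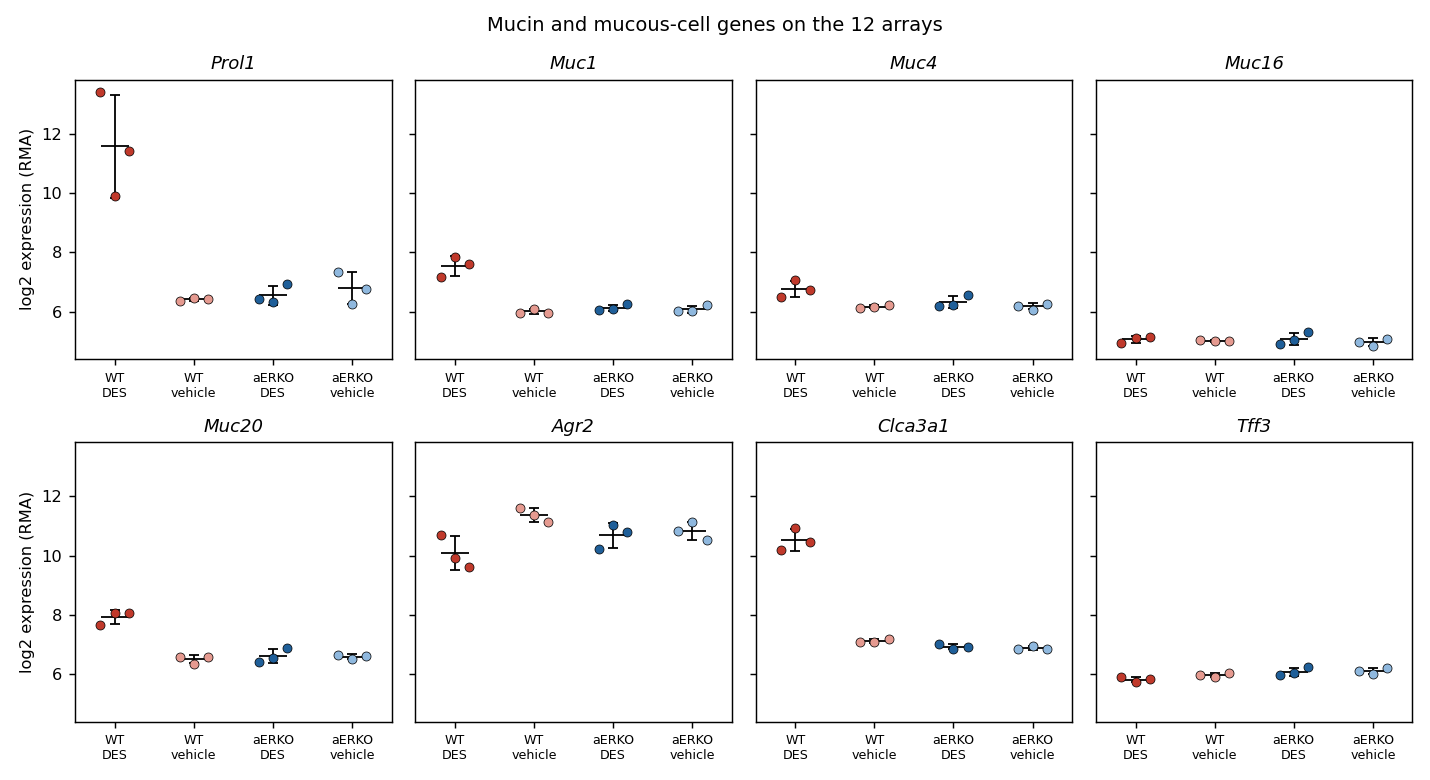
Log2 expression of the 8 mucin and mucous-cell genes on each of the 12 arrays, 1 panel per gene, with the groups WT_DES, WT_vehicle, aERKO_DES and aERKO_vehicle along the x axis. Points are arrays, horizontal bars are group means and vertical bars are 1 SD. For Prol1, Clca3a1, Muc1 and Muc20 every WT_DES point lies above the 9 others, while Muc16 lies near the mean of the background controls (5.20) in every group.

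Prol1 encodes a secreted, proline-rich mucin-like protein of mouse salivary and lacrimal glands, also named Muc10. In WT_DES its level was 13.39, 9.91 and 11.42 on the 3 arrays, against 6.35, 6.44 and 6.42 in WT_vehicle. All WT_DES arrays lay far above all WT_vehicle arrays. The group means were 11.57 ± 1.75 in WT_DES and 6.41 ± 0.047 in WT_vehicle (SD, n = 3 each), a log2 difference of 5.16 ± 0.61 (SE) with a 95% interval of 3.83 to 6.50. On the linear scale this is 35.9-fold, with an interval of 14.2-fold to 90.3-fold. The SE and interval use a spread pooled over the 4 groups, which is smaller than that of WT_DES. They are therefore too narrow for every Prol1 difference that uses WT_DES, and the ends of the interval are not firm bounds. The pooled spread was also smaller than that of WT_DES for Clca3a1, its neighbour Clca3a2, Muc1, Muc4, Muc20 and Agr2. For Clca3a1 the SD was 0.37 in WT_DES and at most 0.07 elsewhere, and for Muc1 0.35 and at most 0.11. The SEs and intervals of these genes are likewise too narrow for differences that use WT_DES. Leaving out WT_DES replicate 1 lowered the difference to 4.26, and leaving out WT_DES replicate 2 raised it to 6.00. In aERKO_DES the levels were 6.43, 6.32 and 6.92, against 7.35, 6.26 and 6.77 in aERKO_vehicle, and these 2 groups overlapped. The highest of the 9 arrays outside WT_DES was thus one of aERKO_vehicle.

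Within WT_DES the arrays differed more in Prol1 than in any other tested gene. Its SD over the 3 arrays ranked 1 of 20102, against a median SD of 0.121. The highest and the lowest WT_DES array differed by 3.48, or 11.2-fold. The next genes by this spread were mt-Tk, a mitochondrial transfer RNA, at 1.74, and Msmb, a secreted protein of the prostate, at 1.71. Msmb also spread widely in WT_vehicle, at 12.66, 7.25 and 8.28. Prol1 had an SD of 0.047 in WT_vehicle, of 0.322 in aERKO_DES and of 0.545 in aERKO_vehicle, where it ranked 17 of 20102.

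**Figure D2:**
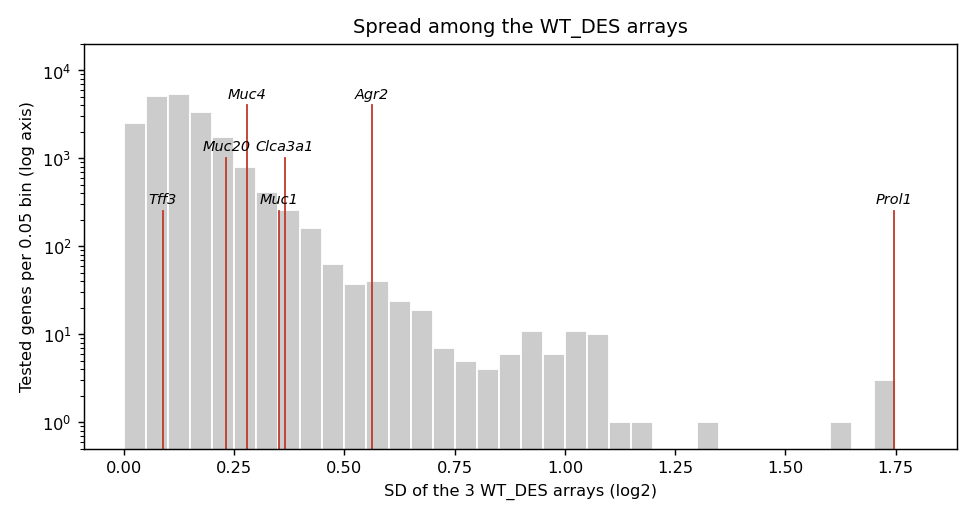
Histogram of the SD of log2 expression over the 3 WT_DES arrays (x axis, in bins of 0.05) for the 20102 tested genes, with the number of genes on a log axis (y) and the tested members as labelled lines whose height has no meaning. Prol1, at an SD of 1.75, is at the far end, while the other tested members lie between 0.09 and 0.56.

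The promoter of Prol1 is shown because it belongs to the member with the largest difference. It is the RefSeq sequence from 250 bases before to 50 after the gene's start, at chr5:88317062-88317361 on the plus strand of GRCm38.p6, printed 5′ to 3′. Capitals mark a match to the C/EBP motif TTGCNNAA, read on the reverse strand at bases 27 to 34 after the start.
Prol1: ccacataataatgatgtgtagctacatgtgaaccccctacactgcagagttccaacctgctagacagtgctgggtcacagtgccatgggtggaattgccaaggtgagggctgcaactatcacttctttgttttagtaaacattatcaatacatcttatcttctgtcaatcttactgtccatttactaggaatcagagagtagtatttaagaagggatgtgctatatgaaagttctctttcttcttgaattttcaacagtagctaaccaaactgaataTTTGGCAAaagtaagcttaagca
Both strands were searched for 8 motifs. Besides the C/EBP match, the window held the estrogen response element (ERE) half-site GGTCA and the forkhead motif TGTTTAC, and it held neither a full ERE (GGTCA and, after 3 bases, TGACC) nor matches to AP-1 (TGANTCA), STAT (TTCNNNGAA), NF-kB or TATAAA. Among the 32851 mouse promoter windows of this length 10.8% hold the C/EBP motif, 40.5% the ERE half-site, 3.65% the forkhead motif and 0.07% a full ERE. Among the promoters found for the members, the full ERE was in 0 of 7.

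Clca3a1 belongs to the CLCA family, secreted proteins with a metalloprotease fold that regulate calcium-activated chloride currents and are made by mucous and other epithelial cells. Its level was 10.20, 10.92 and 10.46 in WT_DES, against 7.07, 7.08 and 7.20 in WT_vehicle. The WT_DES arrays stood together, well clear of the vehicle arrays. The means were 10.53 ± 0.37 in WT_DES and 7.12 ± 0.07 in WT_vehicle, and the difference of 3.41 ± 0.14 (95% interval 3.11 to 3.70) is 10.6-fold. In aERKO_DES Clca3a1 read 7.01, 6.86 and 6.92, against 6.86, 6.96 and 6.84 in aERKO_vehicle. The 2 aERKO groups overlapped, and each of their arrays lay below each array of WT_vehicle.

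Clca3a1 stands on chromosome 3 in a row of CLCA genes, in the RefSeq order Clca3a1, Clca3a2, Clca3b, Clca4b, Clca4a, Clca1 and Clca2, leaving out a pseudogene. Clca3a2 read 11.60, 12.24 and 11.86 in WT_DES, with a mean of 11.90 ± 0.33, against 8.11 ± 0.09 in WT_vehicle. It was 3.79 ± 0.13 higher, given without a test because it neighbours a member that was chosen with this contrast known. Clca3b averaged 9.50 ± 0.38 in WT_DES against 5.92 ± 0.037 in WT_vehicle. Its WT_vehicle level was 0.61 above that group's background controls. Clca1, the goblet cell gene also named gob-5 and distinct from the member that shares its platform symbol, averaged 8.44 ± 0.29 in WT_DES against 5.39 ± 0.12 in WT_vehicle, where it was only 0.08 above that group's background controls. In WT_DES it was 3.57 above their mean, at 8.24, 8.78 and 8.32, where the highest single control read 8.77, 8.16 and 8.62. Clca3b and Clca1 exceeded the array median on the WT_DES arrays alone and passed the filter through them, so no test of these genes that uses WT_DES is given. The genes that stand between Clca3b and Clca1 did not follow. Clca4b read 4.57 in WT_DES against 4.78 in WT_vehicle, Clca4a 4.95 in WT_DES against 5.18 in WT_vehicle, and neither was tested. Clca2, beyond Clca1, was not tested either, but its WT_DES arrays (5.40 to 5.67, mean 5.49) lay above those of WT_vehicle (4.98 to 5.13, mean 5.06). It was 0.62 above the background controls in WT_DES and below them in WT_vehicle. These controls were themselves lower in WT_DES, at 4.99, 4.70 and 4.92 on its arrays against 5.25, 5.34 and 5.33 in WT_vehicle. Part of each step given here relative to background therefore lies in the controls.

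In the knockout none of the tested CLCA genes was called after DES. Clca3a2 averaged 7.89 in aERKO_DES and 7.83 in aERKO_vehicle, Clca3b 5.88 and 5.86, and Clca1 5.53 and 5.46 in the same order of groups. The interval of the aERKO difference reached 0.33 at most for Clca3a2 and Clca3b and 0.38 for Clca1. Clca3b and Clca1 lay below the median on every aERKO array. Their aERKO group means were at most 0.60 and 0.25 above the background controls, so their intervals are weak bounds. For Clca3a2 the aERKO response minus the WT response was -3.74, also given without a test. Neighbouring CLCA genes are similar in sequence, and whether a probe set also reads a neighbour's transcript was not tested.

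**Figure D3:**
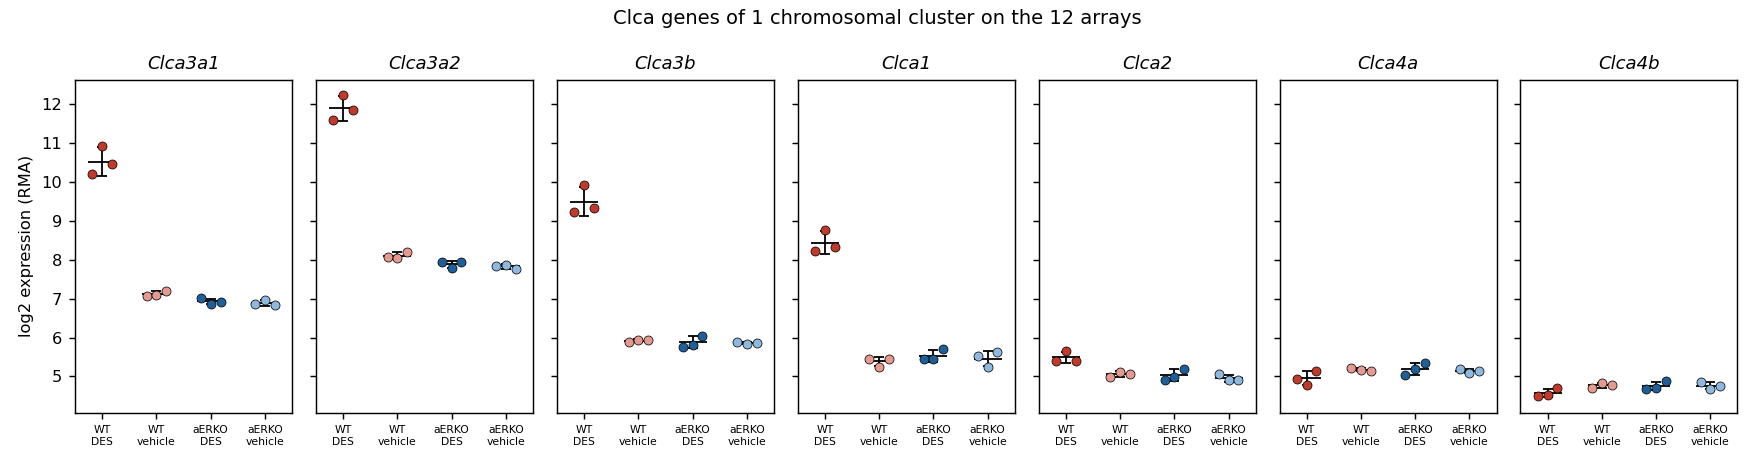
Log2 expression of the CLCA genes of the chromosome 3 cluster on the 12 arrays, 1 panel per gene, with the groups along the x axis. Points are arrays, horizontal bars are group means and vertical bars are 1 SD. In Clca3a1, Clca3a2, Clca3b and Clca1 the WT_DES points lie above all others by about 3 units, and Clca4a and Clca4b lie near background in every group.

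The promoter of Clca3a1 is shown because the gene had the second largest difference among the members. It lies on the minus strand of GRCm38.p6 at chr3:144760928-144761227, with the same extent as that of Prol1. It is in lower case throughout, since it held no match to any of the 8 motifs.
Clca3a1: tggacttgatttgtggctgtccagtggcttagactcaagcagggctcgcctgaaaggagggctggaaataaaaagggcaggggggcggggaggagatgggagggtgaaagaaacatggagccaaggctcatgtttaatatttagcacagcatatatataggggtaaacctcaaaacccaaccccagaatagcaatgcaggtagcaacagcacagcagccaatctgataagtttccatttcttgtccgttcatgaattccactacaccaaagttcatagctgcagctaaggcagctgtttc

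Membrane mucins differed less. Muc1, whose cytoplasmic tail binds kinases and beta-catenin, read 7.15, 7.84 and 7.62 in WT_DES, against 5.96, 6.10 and 5.95 in WT_vehicle. Its means were 7.54 ± 0.35 in WT_DES and 6.00 ± 0.08 in WT_vehicle, a difference of 1.53 ± 0.14 (95% interval 1.23 to 1.83) or 2.89-fold. WT_DES stood clear of the other groups, while the levels of all the other arrays lay close to the array median. In aERKO_DES Muc1 read 6.06, 6.08 and 6.25, against 6.02, 6.01 and 6.21 in aERKO_vehicle, and these groups overlapped.

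Muc20, a membrane mucin that in human cells binds the growth factor receptor MET, read 7.66, 8.05 and 8.06 in WT_DES, against 6.58, 6.35 and 6.59 in WT_vehicle. The difference of 1.42 ± 0.13 (95% interval 1.13 to 1.70) is 2.67-fold, between means of 7.92 ± 0.23 in WT_DES and 6.51 ± 0.13 in WT_vehicle. In aERKO_DES it read 6.42, 6.53 and 6.89, against 6.65, 6.51 and 6.62 in aERKO_vehicle. The aERKO_DES arrays fell on both sides of the vehicle arrays.

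Muc4, whose EGF-like domains bind the receptor ErbB2 and whose gene neighbours Muc20 on chromosome 16, read 6.49, 7.05 and 6.74 in WT_DES, against 6.13, 6.16 and 6.22 in WT_vehicle. Its difference was 0.59 ± 0.13 (95% interval 0.31 to 0.87), from means of 6.76 ± 0.28 in WT_DES and 6.17 ± 0.045 in WT_vehicle. In aERKO_DES it read 6.18, 6.23 and 6.57, against 6.18, 6.07 and 6.27 in aERKO_vehicle. The highest aERKO_DES array lay within the range of WT_DES.

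Muc16, the large membrane mucin that carries the antigen CA125 and binds mesothelin, lay close to background in every group. Its mean was 0.19 above the group's own background controls in WT_DES and below them in the other groups. It read 4.93, 5.11 and 5.14 in WT_DES, against 5.03, 5.00 and 4.99 in WT_vehicle. In aERKO_DES it read 4.90, 5.04 and 5.31, against 4.97, 4.83 and 5.09 in aERKO_vehicle. Every pair of groups overlapped, and a difference at this level cannot be measured on these arrays.

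Agr2, the disulfide isomerase of the endoplasmic reticulum that goblet cells of the mouse gut need to fold their mucin, went the other way. It read 10.71, 9.93 and 9.62 in WT_DES, against 11.61, 11.37 and 11.14 in WT_vehicle. Every WT_DES array lay below every WT_vehicle array. The means were 10.08 ± 0.56 in WT_DES and 11.37 ± 0.23 in WT_vehicle, a difference of -1.29 ± 0.27 (95% interval -1.87 to -0.71), 2.44-fold lower. In aERKO_DES Agr2 read 10.22, 11.04 and 10.79, against 10.82, 11.14 and 10.52 in aERKO_vehicle. All 6 aERKO arrays lay below the 3 arrays of WT_vehicle.

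Tff3, a trefoil peptide that goblet cells secrete together with mucin, stayed close to the array median in all groups. It passed the filter on exactly 3 arrays, so its values are weakly measured. It read 5.89, 5.72 and 5.85 in WT_DES, against 5.96, 5.92 and 6.05 in WT_vehicle. The difference of -0.16 ± 0.08 was not called, although the groups did not overlap, and it was 0.20 when arrays were shifted to the hybridization controls. In aERKO_DES Tff3 read 5.96, 6.04 and 6.23, against 6.11, 6.02 and 6.19 in aERKO_vehicle, and the groups overlapped.

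Within WT_DES the members did not rank the 3 arrays alike. Replicate 1 had the highest Prol1 and the highest Agr2, and it had the lowest Clca3a1, Muc1, Muc4 and Muc20. Replicate 2 had the lowest Prol1 and the highest Clca3a1, Muc1 and Muc4. Markers of prostate and coagulating gland, which lie beside the seminal vesicle, averaged 11.98, 10.95 and 11.43 on WT_DES replicates 1 to 3. On the WT_vehicle replicates they averaged 12.72, 11.23 and 11.46. Of the 4 genes in this mean 1 was Msmb, at 11.66, 8.77 and 11.79 in WT_DES and 12.66, 7.25 and 8.28 in WT_vehicle. Its wide spread shapes the mean, so the order of these means is not set against that of Prol1. WT_DES replicate 1 also had the highest mean of the seminal vesicle secretory markers, at 13.69 against 13.51 and 13.37, and the lowest mean of the macrophage markers, at 10.33 against 10.82 and 10.44. With 3 arrays this is a description of them only, and the part of these tissues or cells in the order of Prol1 was not tested.

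Neonatal DES left no detected trace on the mucin and mucous-cell genes of glands without estrogen receptor alpha. Between aERKO_DES and aERKO_vehicle 0 of the 7 tested members were called by limma, and 0 had an unadjusted p below 0.05. Over all tested genes 0% were called, and 1.31% had an unadjusted p below 0.05. The members' differences ran from -0.23 for Prol1 to 0.16 for Muc4, each with an adjusted p of 0.999, and the groups overlapped for all 8 members, where they did not overlap for 6.11% of tested genes. The intervals bound what could have been missed. For Clca3a1 the difference was 0.04 (95% interval -0.26 to 0.34), for Muc1 0.05 (-0.25 to 0.35) and for Muc20 0.02 (-0.27 to 0.31). For Prol1 it was -0.23 with a wide interval of -1.57 to 1.10, since its spread in WT_DES enters the pooled error, and for Agr2 it was -0.14 (-0.72 to 0.44).

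Loss of the receptor without DES gave no call either. Between aERKO_vehicle and WT_vehicle 0 of the 7 tested members passed, with 0.0249% of all tested genes called, and none of the 7 had an unadjusted p below 0.05, as 4.3% of all tested genes did. Agr2 differed by -0.55 ± 0.27 (95% interval -1.13 to 0.03, limma adjusted p = 1) and Clca3a1 differed by -0.23 ± 0.14 (-0.52 to 0.07, adjusted p = 1). These were the 2 members whose vehicle groups did not overlap, as was the case for 12.2% of tested genes. For the others the differences lay between 0.00 for Muc4 and 0.38 for Prol1, whose interval ran from -0.95 to 1.71.

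After DES the genotypes were apart for most of the set. Prol1 was lower in aERKO_DES than in WT_DES by a log2 difference of -5.02 ± 0.61, or 32.4-fold, and Clca3a1 by -3.60, or 12.1-fold. The differences were -1.41 for Muc1, -1.31 for Muc20 and -0.43 for Muc4, the last with overlapping groups. Agr2 was 0.60 ± 0.27 higher in aERKO_DES with overlapping groups, and Tff3 was 0.25 ± 0.08 higher, or 0.035 and not past the threshold when arrays were shifted to the hybridization controls. In limma 5 of the 7 tested members were past the threshold as lower and 1 as higher in this comparison, in which 52.1% of tested genes were called, 27.5% higher and 24.6% lower. For 5 of the 7 no array of one group lay within the range of the other, as for 55.9% of tested genes.

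The difference between the DES responses, taken as the aERKO response minus the WT response, was -5.40 ± 0.87 for Prol1, -3.37 ± 0.19 for Clca3a1, -1.48 ± 0.20 for Muc1 and -1.39 ± 0.19 for Muc20. It was 1.15 ± 0.38 for Agr2, past the threshold by a margin that leaving out single arrays removed. Muc4 (-0.43 ± 0.18) and Tff3 (0.12) were not past the threshold, though Muc4 was without WT_DES replicate 1 (-0.57) or aERKO_DES replicate 3 (-0.55), with quantile normalization (-0.44) and with array weights (-0.36). In all 5 of 7 tested members were, with 23.3% of tested genes called, 9.16% with a positive and 14.1% with a negative value. These values share the arrays of WT_DES with the description above and repeat its pattern.

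**Figure D4:**
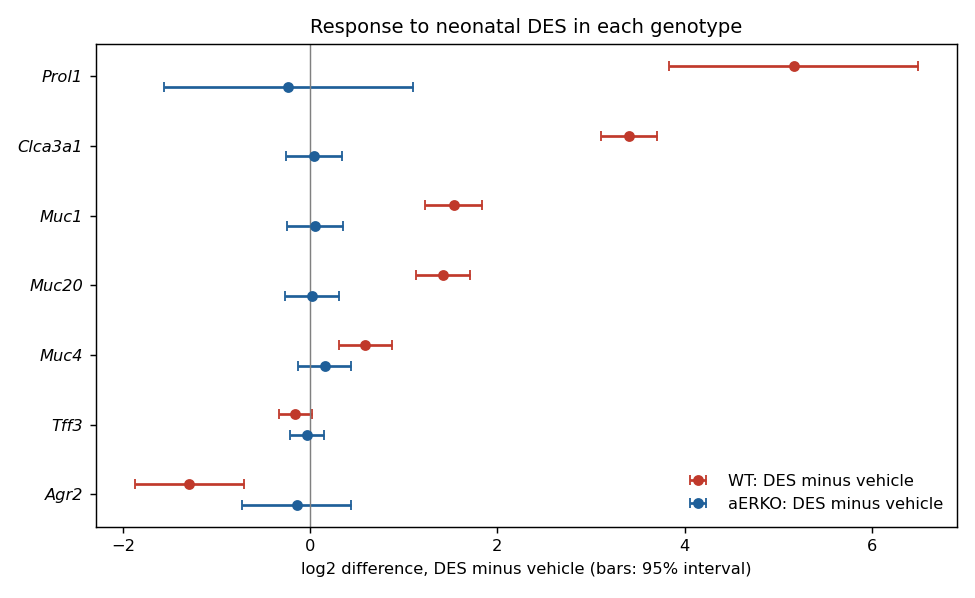
Log2 difference between DES and vehicle for each tested member in WT and in aERKO (x axis), with 95% intervals from limma, 1 row per gene. In WT the intervals of Prol1, Clca3a1, Muc1, Muc20 and Muc4 lie above 0 and that of Agr2 below 0, and in aERKO every interval spans 0.

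For each member the 2 genes with the closest pattern were found as those with the smallest root mean square difference over the 12 arrays, after each gene was centred on its own mean. For Prol1 they were Igkv6-32 (0.68) and Ighv1-7 (0.73), segments of immunoglobulin light and heavy chains. This distance grows with a gene's range, so it is not set against that of the other members. For Clca3a1 they were Cd53, a tetraspanin of leukocytes, and Casp4, an inflammatory caspase, both at 0.11. Outside WT_DES the group means of Igkv6-32 (3.52 to 3.86), Ighv1-7 (4.29 to 4.42) and Casp4 (5.42 to 5.66) lay below the lowest array median, 5.95. The matching uses the WT_DES arrays on which the members stand out, so it is a description without a test. Muc1 was closest to Hcar2 (0.079), a receptor for hydroxy-carboxylic acids, and Rasgrp1 (0.086), a Ras activator of lymphocytes. Muc20 was closest to Cd37 (0.101) and Aldh1a3 (0.104), a leukocyte tetraspanin and an enzyme of retinoic acid synthesis. Muc4 was closest to Blk (0.061), a B cell kinase, and Plk3 (0.061). Agr2 was closest to Pgm2l1 (0.143), an enzyme of sugar phosphate metabolism, and Atp6v1c2 (0.147), a subunit of the proton pump. Tff3 was closest to Fbxl15 (0.043) and 4930451G09Rik (0.045), all over a narrow range of levels.

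Other genes of the mucin pathway were read from lists for WT_DES against WT_vehicle. Their counts are set beside the share of all tested genes called in this comparison, 20.7% higher and 23.3% lower. The lists were chosen with earlier results of these data known. Counts and calls that use WT_DES therefore describe these genes and carry no test. Because a shift of all arrays to the hybridization controls moved the median of all genes in WT to 0.31, against -0.05 as deposited, counts under that shift are given too. Under it 41.5% of all tested genes were called higher and 1.74% lower, while aligning the array medians gave 16.9% and 35.4%. Of the other mucins 8 of 11 named genes were tested, and 2 were higher and 1 lower in WT_DES (4 and 0 under the shift, 1 and 1 with aligned medians), with a median difference of 0.01. Emcn, an endothelial sialomucin, was 0.84 higher and Mcam, an adhesion molecule of vessels, 0.25 higher. The intestinal membrane mucin gene Muc3 fell by 0.36, to 6.90 in WT_DES against 7.26 in WT_vehicle. The gel-forming mucins of stomach and airway were not called: Muc5ac differed by -0.14, Muc5b by 0.14 and Muc6 by -0.19. Muc3 was at -0.0049 and without a call under the shift, and Mcam lost its call with aligned medians (0.18).

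Proteins that are secreted with mucus or onto mucosal surfaces included some of the widest differences. Of 13 tested, 8 were higher and 3 lower (9 and 1 under the shift), with a median of 2.55. Of the 8, Clca3b, Clca1 and Dmbt1 passed the filter only through the WT_DES arrays. Among the 10 others 5 were higher and 3 lower, with a median of 0.36. Besides Clca3a2, Ltf, which encodes the iron-binding lactoferrin, was 5.78 ± 0.20 higher in WT_DES, at 12.12 ± 0.42 against 6.34 ± 0.05 in WT_vehicle. Pigr, which carries antibodies across epithelia, was 3.92 ± 0.16 higher. Dmbt1, a scavenger protein of mucus, averaged 8.45 ± 0.63 in WT_DES against 5.43 ± 0.03 in WT_vehicle, where it was 0.12 above the background controls, so its baseline lay near background. The 3 lower genes were that of the goblet cell mucus protein Fcgbp, at 7.76 ± 0.14 in WT_DES against 8.51 ± 0.06 in WT_vehicle, and the trefoil genes Tff2, which fell by 0.28, and Tff1, which fell by 0.27. Both trefoil genes turned to small positive differences without a call under the shift (0.073 for Tff2 and 0.087 for Tff1), while Fcgbp stayed lower.

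Regulators and the secretory machinery of mucous cells leaned the other way. Of 22 tested genes 4 were higher and 10 lower, with a median of -0.23, but 6 and 2 under the shift to the hybridization controls and 2 and 13 with aligned medians, so the balance of directions turned with the scaling. Spdef, the transcription factor that drives goblet cell maturation, fell by 0.86 ± 0.09, to 7.95 ± 0.20 in WT_DES against 8.81 ± 0.03 in WT_vehicle. The granule GTPase gene Rab3d fell by 0.88, and of the genes for retrieval receptors of the endoplasmic reticulum Kdelr3 fell by 0.59 and Kdelr2 fell by 0.50. Under the shift Spdef (-0.50) and Rab3d (-0.52) stayed called, whereas Kdelr3 (-0.23) and Kdelr2 (-0.15) did not. Marcks, which takes part in mucin release by airway cells, was 0.81 higher and the granule GTPase gene Rab27a 0.64 higher.

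Among the enzymes of mucin-type O-glycosylation 10 of 25 tested were higher and 6 lower, with a median of 0.18 (17 and 2 under the shift). The sialyltransferase genes St3gal1, St6galnac2 and St3gal4, which add the sialic acid that caps such sugars, were 1.19, 1.01 and 0.91 higher. Galnt3, which starts such sugar chains, was 0.67 higher. Galnt5, of the same family, fell by 0.89, and the fucosyltransferase gene Fut2, which makes the H antigen on mucus, fell by 0.84, to 9.17 in WT_DES against 10.01 in WT_vehicle. Of 13 binding partners and sheddases of mucins 7 were higher and 2 lower (10 and 0 under the shift), with a median of 0.38. The proteases Mmp14 and Adam17, which cut MUC1 from the surface of human cells, were 1.70 and 1.31 higher, Siglece, a sialic acid receptor of leukocytes, 1.66 higher, and Egfr 1.04 higher, while Erbb3 fell by 0.41, a call lost under the shift (-0.054).

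Ligands and receptors known to induce mucin genes were mostly higher. Of 16 tested, 10 were higher and 1 lower in WT_DES, with a median of 0.53 (11 and 1 under the shift). Without Il1b, which averaged 10.57 ± 0.57 in WT_DES against 5.72 ± 0.13 in WT_vehicle and passed the filter through WT_DES alone, 9 of 15 were higher and 1 lower, with a median of 0.32. Il33 was 2.72 higher, Tnf 1.80, Il4ra 1.76 and Il13ra1 1.21, while Egf fell by 2.00, to 7.86 ± 0.45 in WT_DES against 9.86 ± 0.20 in WT_vehicle. Of the salivary gland genes listed with Prol1, 3 of 10 named genes were tested. The 1 called was Sval2, which fell by 1.11 in WT_DES, with overlapping groups. No gene of these lists was called between aERKO_DES and aERKO_vehicle, or between aERKO_vehicle and WT_vehicle.

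**Figure D5:**
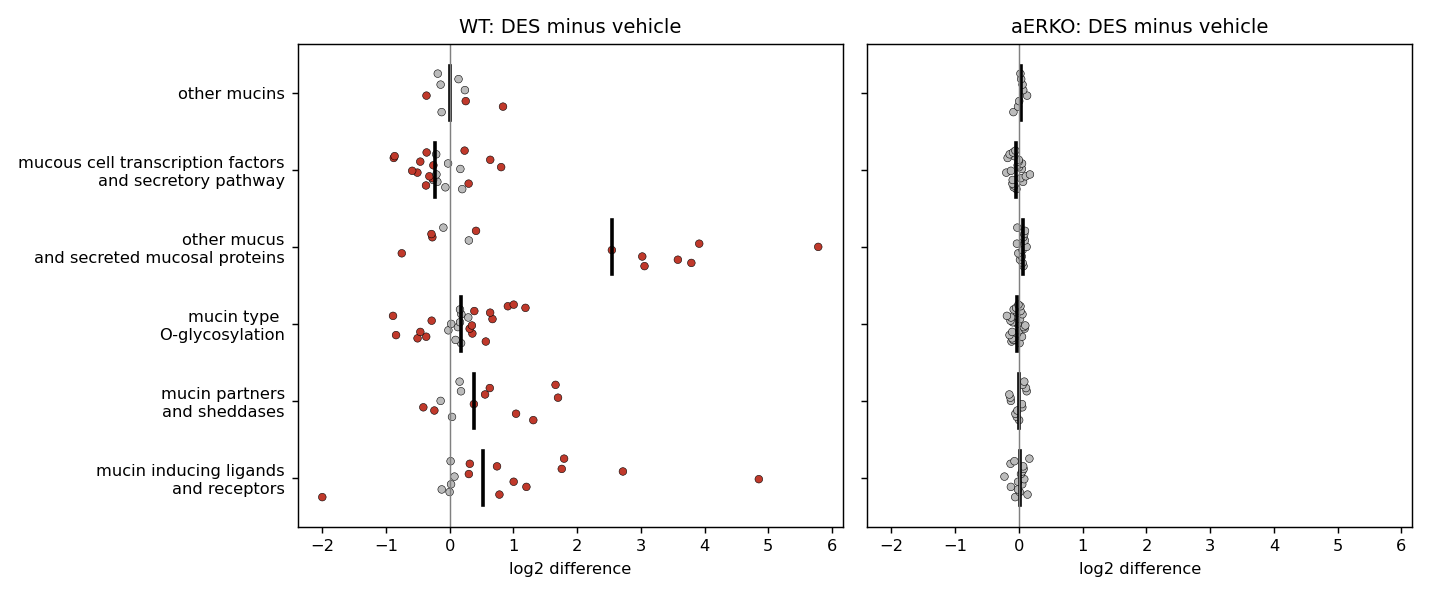
Log2 differences of the tested genes of each mucin pathway list (1 row per list), for WT_DES minus WT_vehicle and aERKO_DES minus aERKO_vehicle, on the x axis. Each point is a gene, and the bar is the list's median. A called gene is red in the WT panel and would be blue in the aERKO panel, and a gene that was not called is grey. The salivary gland genes are not drawn. In WT the mucosal proteins have a median of 2.55 (0.36 without the 3 genes that passed only through WT_DES) and the inducing ligands and receptors one of 0.53. In aERKO no gene was called and every point is grey.

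Markers of other cell types moved in the same comparison. Of the macrophage and neutrophil markers all 6 of each were higher in WT_DES, and macrophage markers averaged 10.33 to 10.82 on its arrays against 7.56 to 7.88 in WT_vehicle. Neutrophil markers averaged 8.87 to 9.72 in WT_DES against 5.34 to 5.35 in WT_vehicle. All 5 B and plasma cell markers were higher, at 8.46 to 8.69 in WT_DES against 5.90 to 6.18 in WT_vehicle. All 10 tested basal and squamous epithelial markers were higher too, at 8.21 to 8.56 in WT_DES against 6.92 to 7.05 in WT_vehicle. The filter was passed only through WT_DES by 3 of the neutrophil, 2 of the B and plasma cell, 1 of the basal and 1 of the T cell markers. Of the T cell markers 4 of 5 were higher, and so were all 4 fibroblast markers, at 10.81 to 11.29 in WT_DES against 8.69 to 9.11 in WT_vehicle. Of the smooth muscle markers 5 of 6 were lower (0 under the shift), of the prostate and coagulating gland markers 3 of 4 (1 under the shift), and of the urothelial markers 2 of 4 (0 lower and 1 higher under the shift). None of the 3 tested mesothelial markers was called, but all 3 were higher under the shift. Of the luminal epithelial markers 5 of 9 were higher and 2 lower, and of the seminal vesicle secretory markers 5 of 9 were lower. Under the shift 6 luminal markers were higher and 0 lower, and 1 secretory marker was lower. In aERKO_DES, against aERKO_vehicle, macrophage markers averaged 7.57 to 7.97 against 7.56 to 7.70, neutrophil markers 5.25 to 5.41 against 5.20 to 5.46, and basal and squamous markers 6.76 to 7.06 against 6.77 to 6.95. In whole tissue more cells of a type and more RNA per cell cannot be told apart, and the part of these cell types in the differences of the mucin genes was not tested.

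Of the 8 tested markers of intestinal and gastric mucous cells 4 were lower in WT_DES. The 1 called higher was Clca1, which passed the filter only through the WT_DES arrays. Without it 0 of 7 were higher and 4 lower, with a median of -0.27. With Clca1 the shift gave 1 higher and 2 lower, and it turned the median to 0.13, against -0.23 as deposited. The mean of the 9 measured markers lay at 6.52 to 6.63 in WT_DES against 6.52 to 6.54 in WT_vehicle. Muc5ac was at 6.05 in WT_DES against 6.19 in WT_vehicle and Muc6 at 6.17 in WT_DES against 6.36 in WT_vehicle.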

How the data were processed

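Per the submitters' processing notes, the authors summarized each probe set with RMA in Expression Console, and the deposited values are on a log2 scale. RMA corrects for background and brings all arrays to one distribution, so a broad change can shift unaffected genes slightly. Tool versions, settings and the genome build were not given in the sources used here. Per the labels' protocols, 300 ng of Trizol-extracted total RNA were amplified and labelled. Names were given to the 30604 probe sets with 1 platform symbol, 1135 of them brought up to date with RefSeq's mouse gene table (GRCm38.p6). Of several probe sets of a gene, the one with the highest mean was used.

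limma 3.58.1 in R 4.3.3 fitted all 12 arrays with a mean per group, two-sided, with Benjamini-Hochberg adjustment over 20102 genes. SEs and intervals are limma's and SDs are of the 3 arrays. The number of arrays limits the precision. Members and lists were chosen with earlier results of these data known. Named genes are the members, up to 6 called genes of the largest difference per list, the 2 genes closest to each member, and Esr1; Muc5ac, Muc5b, Muc6, Clca2, Clca4a, Clca4b, Tff1, Tff2, Fcgbp, Erbb3, mt-Tk and Msmb were added after their values were seen. Promoters come from RefSeq (GRCm38.p6), which matched 7 of 8 members, without Tff3. Promoters of other CLCA genes are not reported here. Alternatives changed the filter, probe set rule, scaling, moderation, weights, block and arrays.

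Same-numbered arrays deviated together with correlations of -0.36 to 0.52, the highest for replicate 3 of aERKO_DES and aERKO_vehicle. Whether the numbers stand for pairs or a shared batch cannot be settled from this, and the main fit did not use them.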

Additional observations from a re-analysis of the deposited data

Results flagged for a closer look

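For 5 members the DES response of aERKO glands differed from that of WT glands in the fitted interaction, given here as aERKO response minus WT response. It was -5.40 for Prol1, -3.37 for Clca3a1, -1.48 for Muc1, -1.39 for Muc20 and 1.15 for Agr2. These members were chosen with the WT response known, so the values describe them and carry no test.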

How the results depend on the processing

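The WT differences of the 6 called members kept their direction and their call under every alternative in which they were tested. The stricter filter left out Muc1, Muc4 and Tff3. Tff3 in WT was 0.20 with the hybridization controls, and it was called as lower with median scaling and quantile normalization. In aERKO_DES minus aERKO_vehicle, where no member was called, signs near 0 turned: Muc20 was -0.0036 with quantile normalization and -0.10 with array weights, and with array weights Agr2 was 0.16, Clca3a2 -0.031, Clca3b -0.058 and Clca1 -0.068. Clca3b was -0.018 with quantile normalization and Tff3 0.10 with the hybridization controls. Leaving out 1 array gave -0.50 to 0.044 for Prol1, -0.011 to 0.12 for Muc1, -0.12 to 0.12 for Muc20, -0.32 to 0.090 for Agr2, -0.11 to 0.025 for Tff3, -0.071 to 0.074 for Clca3b and -0.039 to 0.15 for Clca1. In aERKO_vehicle minus WT_vehicle, Muc4 was -0.0076 with quantile normalization and -0.046 to 0.056 with 1 array left out, and Clca1 was -0.0021 to 0.18. The Tff3 interaction was -0.10 with the hybridization controls. The cause of these turns was not tested.

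Counts over all genes moved. In aERKO_vehicle minus WT_vehicle 14 genes were called with the hybridization controls, 8 with only the groups compared, 80 with array weights and 0 to 6 with 1 array left out. In aERKO_DES minus aERKO_vehicle 0 to 1 were called with 1 array left out. In aERKO_DES minus WT_DES 6771 genes and 3 members were called with the stricter filter, which tests fewer genes, and 6379 genes with the hybridization controls. The interaction gave 2939 genes with the hybridization controls and 8164 with array weights. The Agr2 interaction lost its call in 10 settings, 9 of them with 1 array left out, among them WT_DES replicates 2 and 3 and each WT_vehicle replicate. In aERKO_DES minus WT_DES, Muc4 lost its call without WT_DES replicate 2 (-0.29), aERKO_DES replicate 1 (-0.36) or aERKO_DES replicate 2 (-0.38), Tff3 without WT_DES replicate 2 (0.20) or aERKO_DES replicate 3 (0.18) and with the hybridization controls (0.035), and both with only the groups compared. Agr2 gained one without WT_DES replicate 1 (0.91) or aERKO_DES replicate 1 (0.83), with median scaling (0.68) and with quantile normalization (0.80). The Muc4 interaction gained a call with quantile normalization (-0.44), with array weights (-0.36), without WT_DES replicate 1 (-0.57) and without aERKO_DES replicate 3 (-0.55).

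The replicate number as a block gave 9988, 0, 4, 11466 and 5991 called genes for the WT response, the aERKO response, the genotypes given vehicle, the genotypes given DES and the interaction, and 6, 0, 0, 6 and 5 members. Of the 4 groups' same-numbered arrays, not all correlated best with their own number. Muc16, Clca4a and Clca4b lie at background in all groups, which limits what these arrays can show.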
